A study of Mus musculus with 6 samples.

Results

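The 6 tendon genes *Scx*, *Mkx*, *Tnmd*, *Thbs4*, *Thbs2* and *Tnc* were followed through RNA-seq of fetal mouse leg muscle. They were taken by Ensembl ID from the 56262 genes of the count table, and all 6 were found and passed the filter on low counts. The study compared the leg muscle of wild type (WT) mice with that of mice lacking *SYISL* (KO), a long noncoding RNA with a role in muscle, at embryonic day 18.5 (E18.5d), with 3 samples of each genotype. Mates had the same genotype, so each KO fetus also had a KO mother and each WT fetus a WT mother, and the genotypes of mother and fetus cannot be told apart here. The labels do not say which litter a sample came from or whether fetuses were pooled, so p-values measure only the spread between these samples. The methods take the KO line from earlier work of the same group, and the strain and the sex of the fetuses are not stated in the labels.

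Tendons tie muscle to bone through bundles of type I collagen, and their cells (tenocytes) arise from progenitors that turn on the transcription factor *Scx*. *Mkx*, a homeobox transcription factor, acts later and is needed for normal collagen fibrils in tendon. *Tnmd*, a membrane protein of mature tenocytes, is widely used as a tendon marker and is a target of *Scx*. *Thbs4* and *Thbs2* encode thrombospondins, secreted glycoproteins that bind collagen and cell-surface receptors. *Thbs4* is concentrated in tendon and at the myotendinous junction, where muscle fibers are anchored, and *Thbs2* is also made by fibroblasts of many tissues. *Tnc* encodes tenascin-C, a large secreted protein of tendon, the myotendinous junction and other tissues under load. A dissected leg muscle holds tendon ends and connective tissue beside muscle fibers, and in bulk RNA fewer cells of a type and less RNA per cell cannot be told apart.

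The genes of secreted and membrane proteins were higher in KO fetuses, and those of the transcription factors did not differ significantly. *Thbs4*, *Tnc*, *Thbs2* and *Tnmd* rose significantly, by 1.55-fold, 1.49-fold, 1.27-fold and 1.25-fold, and their 3 KO values all lay above their 3 WT values. *Scx* (log2 fold change 0.08) and *Mkx* (-0.16) did not pass the test, and their WT and KO values overlapped. The legend of the study's volcano plot asks for an adjusted p below 0.05 together with a fold change above 1.5. Its methods give the same fold change with a p-value below 0.05. By the thresholds of the legend, used throughout here, 1 of the 6 genes was called, namely *Thbs4*, which was higher in KO. Of all 22071 genes tested, 16.7% were called and 8.31% were called higher. With the adjusted p alone, 4 of the 6 were higher and 0 were lower, where 45.0% of all genes passed and 21.9% were higher. In mean CPM, these 4 lay above 97.9% to 99.0% of all genes tested, *Scx* above 58.7% and *Mkx* above 62.4%. The part of level in which genes passed was not tested. The 3 KO values lay above the 3 WT values for 4 of the 6, and for 27.3% of all genes tested. The median log2 fold change was 0.33 over the 6 genes and -0.0041 over all genes tested.

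**Figure D1:**
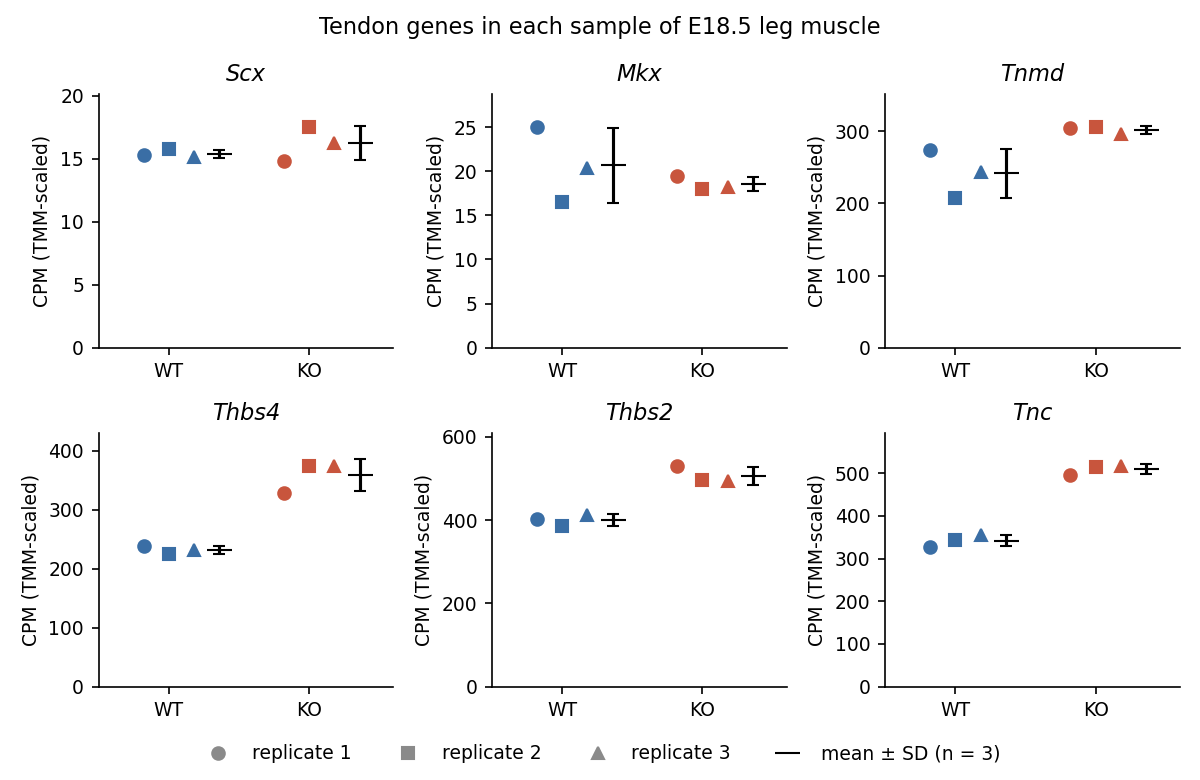
Level in CPM (y axes) of the 6 tendon genes in the 3 WT (blue) and 3 KO (red) samples, with each y axis starting at 0. Symbols mark the replicate, and the black bars give the mean and SD of each genotype. The genotypes overlap for *Scx* and *Mkx* and do not overlap for *Tnmd*, *Thbs4*, *Thbs2* and *Tnc*. WT replicate 2 is the lowest sample for *Mkx*, *Tnmd*, *Thbs4* and *Thbs2*.

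Levels are given in CPM, counts per 1000000 counts of a library, with library sizes scaled by TMM, a method that sets the bulk of genes equal between samples. The libraries held 82054811 to 102233181 counts, and each of the 6 genes had at least 1302 counts in every sample. The muscle label held, since all 10 skeletal muscle markers were detected. The level of 9 of them was higher in KO, so muscle RNA was itself unequal between the genotypes. The leg samples also carried RNA of other tissues in unequal amounts. All 12 epidermis markers were called lower in KO, with a summed level of 16898 to 25034 CPM in WT and 777 to 881 CPM in KO, and all 7 red blood cell markers were called lower, with 3947 to 5191 CPM in WT and 548 to 669 CPM in KO. WT replicate 2 was the highest of the 6 samples for all 12 of the epidermis and all 7 of the red blood cell markers. Without it, *Thbs4* was again the 1 gene called, and 5 of the 6 passed the adjusted p alone, *Tnmd*, *Thbs4*, *Thbs2* and *Tnc* as higher and *Mkx* as lower. In that fit, 9008 of all 22554 genes tested passed the adjusted p alone, in either direction, and 3504 were called. *SYISL* is not annotated under a symbol, so its deletion could not be checked here, and its host gene *Synpo2* was higher in KO (log2 fold change 0.66, adjusted p = 2.89e-05).

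*Scx*, the basic helix-loop-helix factor that marks tendon progenitors, lies at chromosome 15, 76457452 to 76459458, on the plus strand of mm10 (ENSMUSG00000034161.8). Its level was 15.3, 15.8 and 15.1 CPM in WT replicates 1, 2 and 3, and 14.8, 17.5 and 16.3 CPM in KO replicates 1, 2 and 3. The lowest and the highest sample were both KO, and the WT values lay between them. WT averaged 15.4 ± 0.337 CPM and KO 16.2 ± 1.35 CPM (mean ± SD, n = 3). The change was 0.08 in log2 units (SE 0.069, 95% interval -0.08 to 0.23, adjusted p = 0.399 by edgeR's quasi-likelihood test). The upper end of this interval is below the study's fold-change threshold, which is 0.585 on the log2 scale. *Scx* lies within an intron of *Bop1*, a gene of ribosome assembly on the opposite strand, and the 2 genes share 0 exonic bases. The strand setting of the counting is not stated, so intronic reads of *Bop1* cannot be told apart from reads of *Scx*. *Bop1* itself was significantly lower in KO (26.4 ± 0.895 CPM) than in WT (32.9 ± 1.36 CPM), and its part in the values of *Scx* was not tested.

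*Mkx* lies on chromosome 18, 6934518 to 7004780, minus strand (ENSMUSG00000061013.6). Its level was 25.1, 16.5 and 20.4 CPM in WT replicates 1, 2 and 3, and 19.4, 17.9 and 18.2 CPM in the KO replicates. The KO values all lay inside the range of the WT values, which was set by WT replicate 1 at its top and WT replicate 2 at its bottom. WT averaged 20.7 ± 4.28 CPM and KO 18.5 ± 0.787 CPM (mean ± SD, n = 3). *Mkx* had the largest relative spread in WT of the 6 genes, a coefficient of variation of 20.7%, against 4.25% in KO. The change was -0.16 in log2 units (SE 0.13, 95% interval -0.44 to 0.12, adjusted p = 0.337 by edgeR). This value rested on single WT samples. Without WT replicate 1 it was 0.00014 (adjusted p = 0.999), and without WT replicate 2 it was -0.30 (adjusted p = 0.0177), which passed the threshold on p. *AC148004.2*, which overlaps 201 exonic bases of *Mkx* on the same strand, had at most 6 counts in any sample.

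*Tnmd*, whose product sits in the tenocyte membrane, lies on chromosome X, 133850980 to 133865577, plus strand (ENSMUSG00000031250.8). Its level was 274, 207 and 243 CPM in the WT replicates and 304, 306 and 296 CPM in the KO replicates. The 3 KO samples were nearly level, and the WT samples were spread, with WT replicate 2 the lowest and WT replicate 1 closest to KO. The mean rose from 242 ± 33.7 CPM to 302 ± 5.36 CPM (± SD, n = 3). In log2 units this was 0.32 (SE 0.087, 95% interval 0.13 to 0.52, adjusted p = 0.0135 by edgeR). Without KO replicate 2 the adjusted p was 0.0506, just past the threshold, at a log2 fold change of 0.31.

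*Thbs4* lies on chromosome 13, 92751590 to 92794818, minus strand (ENSMUSG00000021702.7). Its level was 239, 225 and 232 CPM in the WT replicates and 328, 373 and 375 CPM in the KO replicates. The WT values were close together, and KO replicate 1 was the lowest of the KO samples. The mean rose from 232 ± 7.08 CPM to 359 ± 26.3 CPM (± SD, n = 3). In log2 units this was 0.63 (SE 0.059, 95% interval 0.50 to 0.76, adjusted p = 2.49e-05 by edgeR). The interval includes the fold-change threshold of 0.585. With libraries scaled by their total counts alone, the log2 fold change was 0.56, and *Thbs4* was no longer called.

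*Thbs2*, the more broadly expressed thrombospondin, lies on chromosome 17, 14665500 to 14694235, minus strand (ENSMUSG00000023885.9). Its level was 403, 385 and 413 CPM in the WT replicates and 530, 496 and 493 CPM in the KO replicates, with KO replicate 1 the highest. *Thbs2* and *Thbs4* thus had opposite orders within KO, where replicate 1 was the highest for *Thbs2* and the lowest for *Thbs4*. The mean rose from 400.1 ± 14.2 CPM to 506 ± 21.1 CPM (± SD, n = 3). In log2 units this was 0.34 (SE 0.052, 95% interval 0.22 to 0.46, adjusted p = 5.68e-04 by edgeR). The interval ends below the fold-change threshold.

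*Tnc* lies on chromosome 4, 63959785 to 64047015, minus strand (ENSMUSG00000028364.15). Its level was 328, 343 and 354 CPM in the WT replicates and 495, 515 and 517 CPM in the KO replicates, with both groups close together. The mean rose from 342 ± 13.0 CPM to 509 ± 12.2 CPM (± SD, n = 3). In log2 units this was 0.57 (SE 0.049, 95% interval 0.47 to 0.68, adjusted p = 1.23e-05 by edgeR). *Tnc* had the smallest adjusted p of the 6 genes and missed the fold-change threshold by a small margin. It passed this threshold with upper-quartile scaling (0.64), without WT replicate 3 (0.60) and without KO replicate 1 (0.60). The antisense transcript *8030451A03Rik*, which shares 176 exonic bases with *Tnc*, had 98 to 216 counts per sample and a log2 fold change of 0.61 (adjusted p = 0.00702), and without a stated strand setting some of these reads cannot be told apart from those of *Tnc*.

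**Figure D2:**
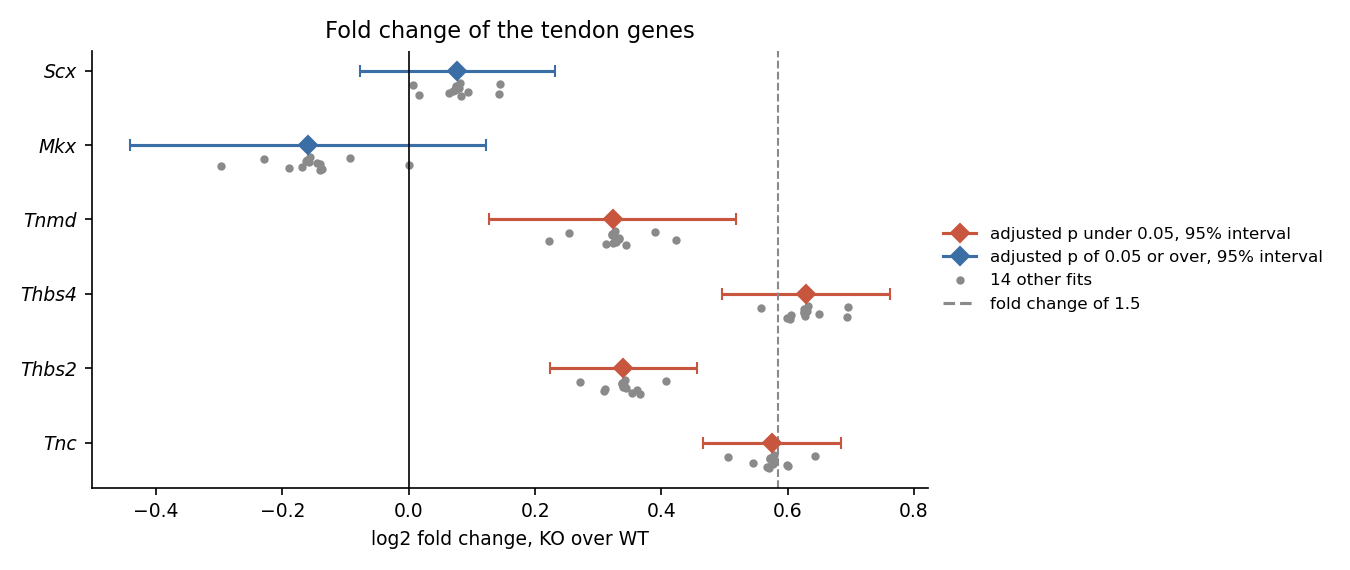
Log2 fold changes of KO over WT for the 6 tendon genes (x axis), with 95% intervals from edgeR, in red where the adjusted p was under 0.05 and in blue where it was not. The dashed line is the fold-change threshold of 1.5, and the grey points are the values from 14 other fits. The intervals of *Scx* and *Mkx* span 0, and those of *Thbs4* and *Tnc* span the dashed line.

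Levels were compared between genes after division by exonic length, in CPM per kb. *Tnmd* was the most abundant of the 6 by this measure, at 179 ± 24.9 in WT and 223 ± 3.96 in KO (SD, n = 3 each), although *Thbs2* and *Tnc* had more CPM, since the exons of *Tnmd* cover 1.35 kb and those of *Tnc* 7.77 kb. *Thbs4* followed at 70.6 ± 2.15 in WT and 109 ± 8.01 in KO, then *Thbs2* at 57.1 ± 2.03 and 72.3 ± 3.01, and *Tnc* at 44.0 ± 1.68 and 65.5 ± 1.57. The transcription factors were far lower, *Scx* at 7.66 ± 0.168 in WT and 8.08 ± 0.674 in KO, and *Mkx* at 5.05 ± 1.05 and 4.52 ± 0.192. The order was the same in all 6 samples, and no neighbours in it overlapped within a genotype. Across genotypes the order did not hold, since *Tnc* in KO (63.7 to 66.6) lay above *Thbs2* in WT (54.9 to 58.9), and *Thbs2* in KO (70.3 to 75.8) overlapped *Thbs4* in WT (68.4 to 72.7). *Tnmd* made up 49.0 ± 3.05% of the summed CPM per kb of the 6 genes in WT and 46.3 ± 0.908% in KO, and *Scx* and *Mkx* had the smallest shares, at 2.12 ± 0.213% and 1.38 ± 0.181% in WT and 1.67 ± 0.116% and 0.937 ± 0.0525% in KO.

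**Figure D3:**
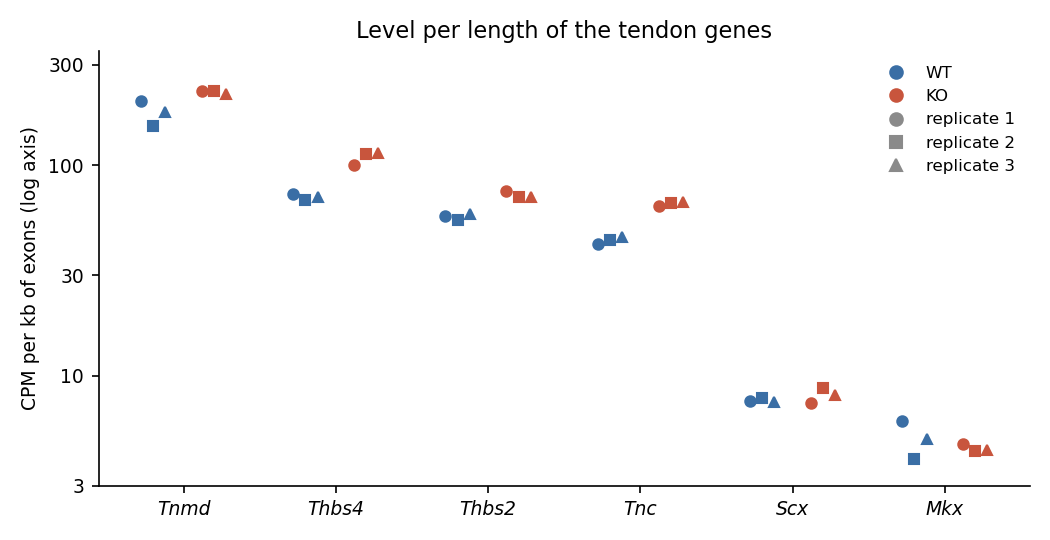
Level of the 6 tendon genes in CPM per kb of exons (log axis), ordered by the WT mean, in each WT (blue) and KO (red) sample with symbols for the replicate. *Tnmd* is the highest and *Mkx* the lowest in all 6 samples, and a wide gap separates the 4 genes of secreted and membrane proteins from *Scx* and *Mkx*.

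The sequences just before the start sites of the 4 genes that rose are shown because these genes were higher together. They come from a set of RefSeq start sites on GRCm38.p6 (the mm10 assembly), and the set used here held no entry for *Scx* and *Mkx*. Each runs 5′ to 3′ on the strand of the gene and ends at the base before the RefSeq start, except for *Tnmd*, where the last bases were left out because GENCODE begins the transcript earlier. For *Tnc* the most upstream start was used. Capitals mark E-boxes (CANNTG), the core sequence that basic helix-loop-helix factors such as *Scx* bind.
*Thbs4*, chr13:92794819-92795068, minus strand: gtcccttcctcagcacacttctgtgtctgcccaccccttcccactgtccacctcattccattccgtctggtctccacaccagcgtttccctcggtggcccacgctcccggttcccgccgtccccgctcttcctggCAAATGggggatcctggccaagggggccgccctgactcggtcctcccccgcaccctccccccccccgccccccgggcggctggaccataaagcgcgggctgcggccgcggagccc
*Thbs2*, chr17:14694263-14694512, minus strand: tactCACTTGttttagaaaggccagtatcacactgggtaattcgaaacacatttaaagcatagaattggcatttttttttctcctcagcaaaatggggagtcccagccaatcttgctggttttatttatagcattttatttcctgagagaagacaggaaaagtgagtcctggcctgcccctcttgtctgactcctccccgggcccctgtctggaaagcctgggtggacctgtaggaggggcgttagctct
*Tnc*, chr4:64047016-64047265, minus strand: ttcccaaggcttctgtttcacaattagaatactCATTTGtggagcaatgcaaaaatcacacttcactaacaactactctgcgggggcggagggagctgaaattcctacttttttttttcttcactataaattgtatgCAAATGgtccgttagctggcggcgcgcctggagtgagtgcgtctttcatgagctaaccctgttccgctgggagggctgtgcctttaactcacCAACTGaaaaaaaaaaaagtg
*Tnmd*, chrX:133850758-133850979, plus strand: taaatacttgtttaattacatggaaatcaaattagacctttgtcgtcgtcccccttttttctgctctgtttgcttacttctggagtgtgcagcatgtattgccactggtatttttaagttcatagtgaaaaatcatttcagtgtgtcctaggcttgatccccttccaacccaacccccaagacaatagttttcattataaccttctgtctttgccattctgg

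Within the 250 bases before the start, *Tnc* had 3 E-boxes, at positions -217, -113 and -21 counted from the start site. *Thbs4* had 1 at -115 and *Thbs2* had 1 at -246, and *Tnmd* had 0. An E-box stood in 66.2% of the 32851 promoter windows of this length, and 3 or more stood in 12.2%. Both strands were searched for 3 other motifs. The motif of the EGR factors (GCGNGGGCG) was found in the *Tnc* window, at -171, and in 4.70% of all windows. TATAAA was found in the windows of *Tnc* and *Thbs2*, at -126 in each, and in 12.4% of all windows. The AP-1 motif TGANTCA was found in none of the 4 windows, and in 6.75% of all windows. The windows differed in composition, with 70.8% G and C for *Thbs4*, 46.8% for *Thbs2*, 44.8% for *Tnc* and 39.2% for the bases shown for *Tnmd*, against a median of 52.4% over all windows. These are matches of letters, and binding was not measured here.

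Whether the 6 genes moved apart from each other was read from ratios of counts within a sample, which do not depend on how libraries are scaled. The log2 ratio of *Thbs4* to *Thbs2* was -0.75, -0.77 and -0.83 in the WT replicates and -0.69, -0.41 and -0.39 in the KO replicates. The ratio was higher in KO by 0.29 on the log2 scale (exact two-sided permutation test, p = 0.1, which is the lowest value possible with this many samples, and 0.167 after adjustment over the 10 ratios compared). The log2 ratio of *Tnc* to *Thbs2* was -0.30, -0.16 and -0.22 in WT and -0.10, 0.05 and 0.07 in KO, higher in KO by 0.24 (exact permutation p = 0.1, adjusted 0.167). The genotypes did not overlap in either ratio, so *Thbs4* and *Tnc* each took a larger share relative to *Thbs2* in all 3 KO samples. The ratio of *Tnmd* to its regulator *Scx* overlapped between the genotypes, with 4.17, 3.72 and 4.01 in WT and 4.36, 4.13 and 4.19 in KO (difference 0.26, exact permutation p = 0.2, adjusted 0.286), and the difference was 0.13 without WT replicate 2. The ratio of *Scx* to *Mkx* also overlapped, with -0.72, -0.07 and -0.43 in WT and -0.39, -0.03 and -0.16 in KO (difference 0.21, exact permutation p = 0.4, adjusted 0.5). That difference was 0.057 without WT replicate 1, 0.38 without WT replicate 2 and 0.13 without KO replicate 2. No ratio could pass a threshold of 0.05 in this design.

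Tendon cells share much of their matrix with fibroblasts, so each gene was also set against the summed counts of 12 fibroblast markers in the same sample. *Scx* was lower in KO relative to these markers, at -9.66, -9.67 and -9.75 in WT and -10.1, -9.81 and -9.90 in KO on the log2 scale (difference -0.25, and -0.16 without KO replicate 1). *Mkx* was lower as well, with a difference of -0.47 and no overlap, and of -0.29 without WT replicate 1. *Tnmd* and *Thbs2* had nearly the same ratio in both genotypes, with differences of 0.0050 and 0.012 and overlapping values. *Thbs4* and *Tnc* were higher relative to the markers, by 0.30 and 0.25, with no overlap. For *Thbs4* the groups nearly touched, at -5.67 in KO replicate 1 and -5.69 in WT replicate 1. The exact permutation p was 0.1 for *Scx*, *Mkx*, *Thbs4* and *Tnc* (adjusted 0.167 each), 1 for *Tnmd* and 0.9 for *Thbs2*. *Col3a1*, the collagen that fibroblasts and tendon sheaths share, made up 75.0% to 77.1% of the summed markers. With the mean log2 CPM of the 12 markers in its place, a measure chosen after seeing the data, the differences were -0.25 for *Scx*, -0.47 for *Mkx*, 0.0059 for *Tnmd*, 0.30 for *Thbs4*, 0.012 for *Thbs2* and 0.25 for *Tnc*. The fibroblast markers themselves were higher in KO, 9 of 12 by the adjusted p alone and 1 called, with a median log2 fold change of 0.28 and a summed level of 12346 to 13016 CPM in WT and 15560 to 16667 CPM in KO. A gene of unchanged level thus also comes out lower relative to them, so the lower ratios of *Scx* and *Mkx* are not particular to these genes. The log2 fold change of *Scx* was above that of 60.1% of all genes tested, and that of *Mkx* above 29.9%.

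**Figure D4:**
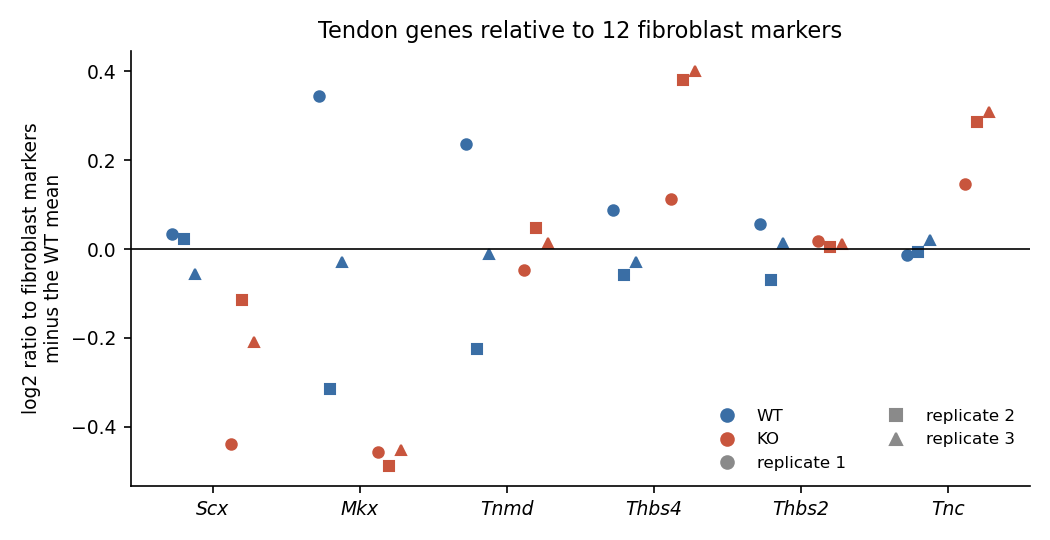
Log2 ratio of each tendon gene to the summed counts of 12 fibroblast markers in the same sample, minus the mean of the 3 WT samples (y axis), with WT in blue, KO in red and symbols for the replicate. KO samples lie below WT for *Scx* and *Mkx*, above WT for *Thbs4* and *Tnc*, and among the WT samples for *Tnmd* and *Thbs2*.

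Skeletal muscle markers were mostly higher in KO too, with a larger median change than the tendon genes. Of 10 skeletal muscle markers, 9 were called higher in KO, with a median log2 fold change of 1.13 and a summed level of 20951 to 23357 CPM in WT and 43831 to 53526 CPM in KO. Relative to these markers, a comparison also chosen after seeing the data, all 6 tendon genes were lower in KO with no overlap, with log2 differences of -1.09 for *Scx*, -1.30 for *Mkx*, -0.83 for *Tnmd*, -0.53 for *Thbs4*, -0.82 for *Thbs2* and -0.58 for *Tnc* (exact permutation p = 0.1 for each). Because the markers themselves rose, a gene of unchanged level also comes out lower by this measure. Even *Thbs4*, whose log2 fold change was above that of 91.3% of all genes tested, was lower. The comparison thus does not set the tendon genes apart from other genes. Cartilage markers, which share genes with tendon attachment sites, were mixed, with 6 of 10 called lower and 1 called higher, and a summed level of 457 to 578 CPM in WT and 387 to 391 CPM in KO. The part of these tissues in the values of the tendon genes was not tested.

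Most other members of their families were higher in KO as well. All 5 thrombospondins, *Thbs2* and *Thbs4* included, were significantly higher in KO and 2 were called. The shares over all genes tested were 21.9% higher by the adjusted p alone and 8.31% called higher. *Comp*, the cartilage and tendon member also known as thrombospondin 5, rose from 11.4 ± 2.06 to 19.7 ± 0.621 CPM (log2 fold change 0.79), *Thbs1* from 128 ± 3.37 to 163 ± 2.22 CPM (0.34) and *Thbs3* from 142 ± 7.95 to 187 ± 4.07 CPM (0.40). Of the 4 tenascins, 3 were significantly higher, *Tnc* among them. *Tnn*, or tenascin-W, rose from 35.5 ± 4.88 to 68.8 ± 1.95 CPM (0.95), and *Tnxb*, a tenascin of loose connective tissue, from 324 ± 26.5 to 503 ± 38.2 CPM (0.63). *Tnr*, a tenascin of the nervous system, was scarce, with 0.122 ± 0.0849 CPM for WT against 0.0913 ± 0.0513 CPM for KO. *Cnmd*, the cartilage relative of *Tnmd*, fell to 4.54 ± 0.295 CPM (log2 fold change -1.28), so the 2 genes of that family went opposite ways (± SD, n = 3 for all values). The adjusted p of each of these other family members was at most 4.36e-04 by edgeR, except for *Tnr*, which did not pass.

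Of 9 other tendon regulators, 3 were significantly higher, 3 were lower and 3 did not pass, with a median log2 fold change of 0.09. Over all genes tested, 21.9% were higher and 23.1% were lower by the same rule. *Egr1*, a zinc finger factor that responds to mechanical load, rose from 55.9 ± 1.47 to 79.3 ± 5.55 CPM (0.50). *Irx3* was the 1 regulator called, falling from 16.8 ± 3.78 to 6.64 ± 0.443 CPM (-1.34), and *Sox9*, which marks the progenitors of tendon attachments and of cartilage, fell from 15.9 ± 0.114 to 11.9 ± 0.312 CPM (-0.42). Of 20 signalling genes tested, 5 were higher, 5 were lower and 10 did not pass, shares near those over all genes tested, with a median of -0.01. The receptors *Tgfbr2* (0.21) and *Fgfr1* (0.21) and the ligand *Tgfb3* (0.13) rose, all by small amounts, and *Tgfb2* did not pass (-0.02). The 3 called genes were all lower and scarce. These were *Fgf4*, *Gdf5* and *Gdf6*, of which *Fgf4* fell from 1.01 ± 0.0453 to 0.503 ± 0.0623 CPM and *Gdf5*, a joint and tendon growth factor, from 1.21 ± 0.253 to 0.701 ± 0.132 CPM (-0.79).

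The other structural genes of tendon were mostly higher. Of 26 matrix genes, 20 were significantly higher, 0 were lower and 5 were called, with a median log2 fold change of 0.27. *Col3a1*, *Dcn* and *Lum* of this list are also among the fibroblast markers. The main fibril collagen gene, *Col1a1*, did not pass (18324 ± 1234 CPM against 20477 ± 194 CPM in KO, adjusted p = 0.150 by edgeR), and its partner *Col1a2* rose by 0.22 and *Col3a1* by 0.35. *Postn*, the secreted protein periostin, rose by 0.34. The called matrix gene with the largest change was *Cilp2* (1.21) and that with the smallest was *Cilp* (0.61). Of 11 genes of the tendon sheath and of later tendon cells, 8 were higher and 5 were called, among them the sheath gene *Tppp3*, which rose from 160 ± 6.35 to 253 ± 22.9 CPM (0.66), and *Clec3a* (1.19). At the myotendinous junction, 11 of 12 genes were higher and 4 were called. *Nrap*, a muscle-side protein that anchors actin at the junction, rose the most, from 123 ± 5.09 to 351 ± 19.5 CPM (1.51), and *Lama2* the least of those called (0.64), and the muscle markers moved the same way as these genes. Of 12 receptors and partners of the thrombospondins and tenascins, 7 were higher and 1 was called, *Cd36* (0.85), a thrombospondin receptor that fat and endothelial cells also make. *Cd47*, another thrombospondin receptor, rose by 0.30, and *Lrp1*, which takes up thrombospondins, did not pass (0.02). Over the 97 other tendon genes tested, 59 were higher (60.8%), 9 were lower and 18 were called higher (18.6%), with a median of 0.21, and the shares over all genes tested were 21.9% and 8.31%.

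**Figure D5:**
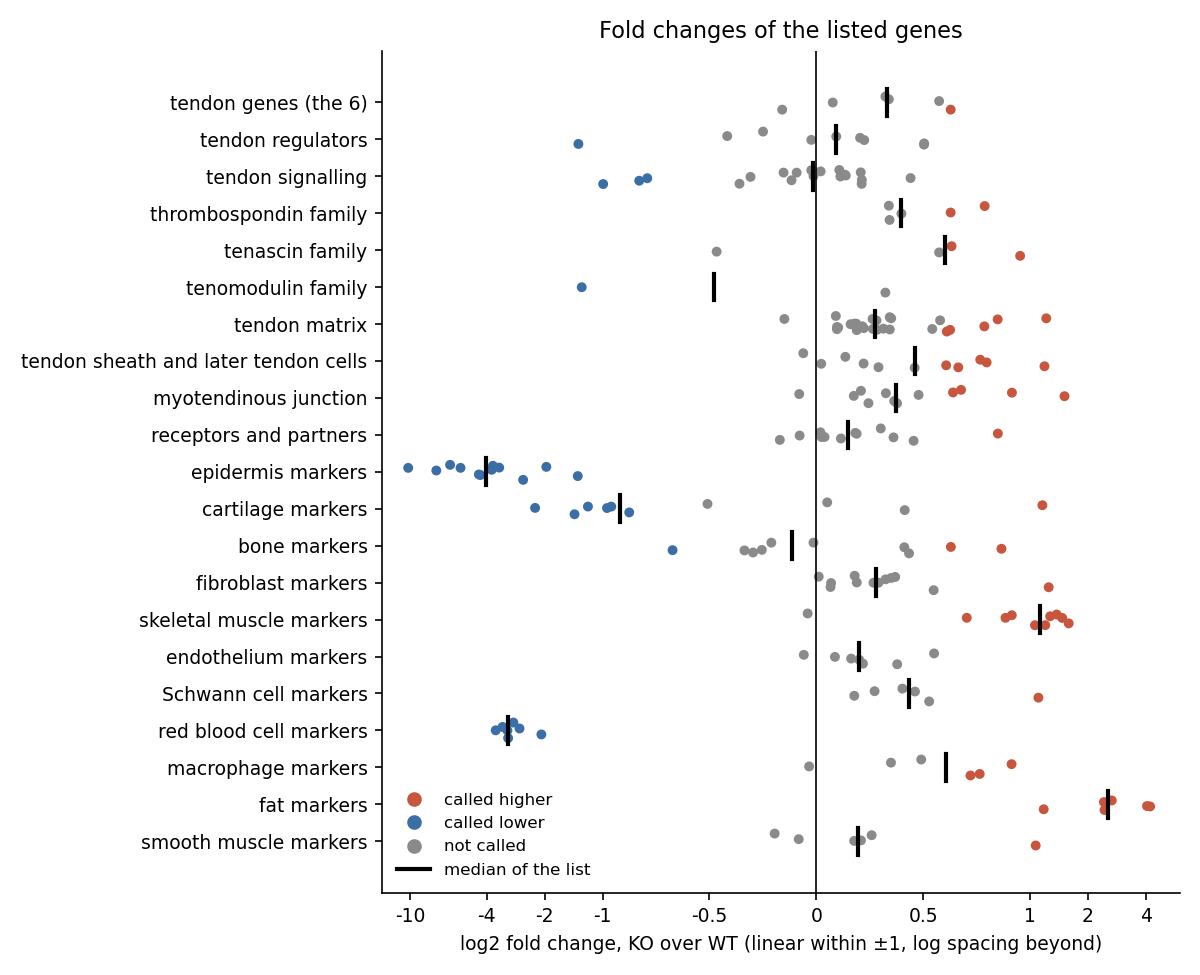
Log2 fold changes of KO over WT (x axis, linear within ±1 and log-spaced beyond) for every tested gene of the tendon lists and of the marker lists of other tissues, 1 point per gene. Red and blue points were called higher and lower, grey points were not called, and the black bars are list medians. The tendon structural lists lie to the right of 0 with medians of 0.27 to 0.46, the skeletal muscle and fat markers lie further right, at 1.13 and 2.55, and epidermis and red blood cell markers lie far to the left, at -4.04 and -3.10.

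Other tissues moved beside these lists. All 6 fat markers were called higher (summed level 105 to 137 CPM in WT and 340 to 402 CPM in KO), and of the Schwann cell markers 5 of 6, of the macrophage markers 5 of 6, and of the endothelium markers 5 of 7 were significantly higher. Of 6 smooth muscle markers, 3 were significantly higher and 1 was lower, *Acta2*, the most abundant of them (log2 fold change -0.19). Bone markers were divided, with 4 of 10 higher and 5 lower. The shares over all genes tested were 21.9% higher and 23.1% lower by the adjusted p alone. CPM are shares of a library and depend on how libraries are scaled. With TMM the log2 fold changes are those given above, and with scaling by total counts alone the log2 fold changes of the tendon genes were 0.0072 for *Scx*, -0.23 for *Mkx*, 0.25 for *Tnmd*, 0.56 for *Thbs4*, 0.27 for *Thbs2* and 0.51 for *Tnc*.

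The genes whose pattern over the 6 samples was most like that of each tendon gene were sought among the 12371 genes of at least 5 CPM on average, by the root mean square difference of centred log2 CPM. Nearest to *Scx* were *Phb*, *Usf3* and *Adh5* (differences of 0.014 to 0.022), and nearest to *Mkx* were *Vstm2b*, *A230057D06Rik* and *AI987944* (0.056 to 0.076). Nearest to *Tnmd* were *Rmdn1*, *Tmem159* and *Pde1a* (0.047 to 0.054), to *Thbs4* *C1qtnf9*, *Frzb* and *Srl* (0.013 to 0.015), to *Thbs2* *Slc25a45*, *Adcy5* and *Olfml1* (0.021 to 0.025), and to *Tnc* *Inpp5k*, *Aldh6a1* and *Tspan15* (0.019 to 0.021). Among the 6 tendon genes the closest pair was *Thbs4* and *Tnc*, with a difference of 0.071, and the next was *Tnmd* and *Thbs2*, with 0.10. *Scx* and *Mkx* differed by 0.24, and the widest pair was *Mkx* and *Thbs4*, with 0.42. No tendon gene was among the 3 nearest of another, and 207 other genes were nearer to *Tnc* than *Thbs4* was.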

How the data were processed

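The data are RNA-seq counts of leg muscle from 3 WT and 3 KO mouse fetuses at E18.5d. The authors sequenced total RNA as 150 bp read pairs, trimmed with Trim Galore 0.6.6, mapped to mm10 with HISAT2 2.2.1 and counted with featureCounts 2.0.1, per the labels and the methods of the study. The deposited tables hold whole-number counts for each gene with no normalization. Neither the annotation nor the strand setting nor the unit counted (read or pair) is given in the sources used here, so reads shared with overlapping genes are uncertain. The samples held 82054811 to 102233181 counts, and 37342 of the 56262 genes had at least 1 count.

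Symbols and positions came from GENCODE M21 (same assembly), where 55227 gene IDs matched without their version. The tests used edgeR 4.0.16 in R 4.3.3 (filterByExpr, TMM factors, quasi-likelihood F-test on genotype), with Benjamini-Hochberg adjustment over the 22071 genes kept. CPM use the TMM-scaled library sizes, and 95% intervals use the standard error of the fit. Log2 CPM had a prior count of 2. The biological coefficient of variation was 7.68%. Samples of a genotype differed by more than counting noise (mean chi-square per gene 4.85 to 32.9). Scripts were tested on simulated data. Within-sample ratios were compared by exact permutation (SciPy 1.17.1).

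The 6 genes and all lists were chosen with earlier results of these data known. The genes named were the 6, genes overlapping them, the rest of their families, and from each list the 4 tested genes of highest mean CPM and the called genes with the largest and the smallest fold change. *Gdf6* was named outside this rule, after its values were seen. A gene that the rule names is not reported here. For each of the 6, the 3 genes of at least 5 mean CPM with the nearest pattern were named. The alternatives were RLE, upper-quartile or no library factors, 2 other filters, DESeq2 1.42.0, limma-voom (limma 3.58.1), changed thresholds, a replicate block and the removal of each sample. Numbers of replicates are not said to mark litters, and samples of the same number were not treated as paired.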

Additional observations from a re-analysis of the deposited data

How the results depend on the processing

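*Thbs4*, *Tnc* and *Thbs2* were higher in KO, with an adjusted p under 0.05, in all 14 other fits, with log2 fold changes of 0.56 to 0.70, 0.51 to 0.64 and 0.27 to 0.41. *Scx* kept its direction and did not pass in any of the 14 (0.0072 to 0.14). The number of the 6 genes called was 1, and it was 2 with upper-quartile factors (*Thbs4* and *Tnc*), 0 with library size only, 4 with no fold-change threshold and 0 with a fold change over 2, and between 1 and 2 when samples were left out in turn. Of all 22071 genes tested, 1835 were called higher with TMM, 2188 with upper-quartile factors and 1528 with library size only. In either direction, 9936 passed with no fold-change threshold and 2043 with a fold change over 2. Leaving out samples gave *Mkx* a log2 fold change between -0.30 (without WT replicate 2, past the threshold on p) and 0.00014 (without WT replicate 1, reversed), and *Tnmd* one between 0.22 and 0.42, of which 0.31 (without KO replicate 2) missed the threshold. With the adjusted p alone, between 3 and 5 of the 6 passed as samples were left out. In these fits, 7638 to 9845 of all genes tested passed the adjusted p alone and 3351 to 3877 were called, of 22452 to 22554 genes tested. Of the other tendon genes, 9 were lower by the adjusted p alone and 15 with library size only. The cause of these differences was not tested.

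The difference of the log2 ratio of *Tnmd* to fibroblast markers was 0.0050, lay between -0.11 and 0.12 when samples were left out, and reversed without WT replicate 2 (-0.11), WT replicate 3 (-0.00072) and KO replicate 2 (-0.016), and that of *Thbs2* lay between -0.023 (without WT replicate 2, reversed) and 0.040. With skeletal muscle markers as the denominator, the differences of *Tnmd*, *Thbs4*, *Thbs2* and *Tnc* were -0.83, -0.53, -0.82 and -0.58.

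With a replicate block, which pairs samples of the same number, 1 of the 6 genes was called (*Thbs4*, log2 fold change 0.63) and 4 passed the adjusted p alone, as without it. In that fit, 8860 of all 22071 genes tested passed the adjusted p alone and 3521 were called. The deviations of same-numbered samples from their genotype means correlated at -0.20, -0.13 and 0.05. These values show no pairing by number, but with means of only 3 samples they cannot exclude it. With all 3 samples of each genotype, *Scx* and *Mkx* did not pass, and the size of difference that this design could detect was not tested.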
